A study of Rattus norvegicus with 9 samples.

Results

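Coagulation and fibrinolysis genes were examined in 9 rat livers. The set held 36 genes chosen by symbol: 23 factors made by hepatocytes and 13 regulators expressed by endothelium, macrophages, stromal cells or other tissue cells. Of these, 35 were found among the 32883 genes of the deposited table and 34 had enough counts to be tested, 21 hepatocyte-made and 13 tissue or endothelial. Hrg, which encodes histidine-rich glycoprotein, was not found under that symbol and was not analysed here. Serpina10, which encodes the protein Z-dependent protease inhibitor, had 1 count in normal liver 2, empty livers 1 and 2 and 0 counts in the other 6 livers, and was not tested.

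The animals were male Sprague-Dawley rats aged 8 to 11 weeks when obtained, and their age at harvest was not given. Acute-on-chronic liver failure (ACLF) was induced by bile duct ligation for 21 days followed by an intraperitoneal injection of lipopolysaccharide (LPS) at 0.25 mg/kg. From 1 h after LPS the blood of ACLF rats was circulated outside the body for 2 h, and livers were taken 24 h after LPS. In the empty group (n = 3) the circuit held neither cells nor adsorbent, whereas in the UTOpiA group (n = 3) it held a column of organoids of hepatocyte-like cells made from human induced pluripotent stem cells, which carried engineered gene knockouts, in tandem with a column of cellulose acetate beads for granulocyte and monocyte apheresis. Normal rats (n = 3) were the reference, and no treatment or sham procedure is described for them in the sources used here. Both circuits were primed with heparinised saline, so the ACLF groups share surgery, LPS, heparin and circulation, and these cannot be told apart in comparisons with normal livers. Sequenced ACLF livers came from rats alive at 24 h, and rats that bled beyond a set volume had been left out of the study. The paper reports that most rats of the empty group died early and that survival was highest with UTOpiA. The livers of the 2 ACLF groups may thus be selected differently.

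Clotting runs through a cascade of serine proteases. Tissue factor (F3) with factor VII, or the contact system of factor XII, prekallikrein and kininogen, leads to thrombin, which cuts fibrinogen into fibrin. Antithrombin, heparin cofactor II, the protein C system and the tissue factor pathway inhibitors restrain it, and plasmin, formed from plasminogen by the tissue and urokinase activators, dissolves the fibrin. Hepatocytes make most of the circulating factors, and fibrinogen is a classical acute-phase protein. The receptors and activators that start or localise the reactions are made largely, though not only, by other cells.

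Expression is given as normalised CPM, which are read counts scaled by library size and TMM factor, and the log2 fold changes are on the same scale. A member was called higher or lower when edgeR's quasi-likelihood test returned a p-value that stayed under 0.05 after Benjamini-Hochberg adjustment across the 14089 genes tested, and the fold change exceeded 2. Levels of different genes are compared only in TPM, which scale the counts by transcript length and library total. Total counts ranged from 14241172 to 17321677 per liver, and the TMM factor lay between 0.80 and 0.83 for the normal livers and between 0.86 and 1.32 for the ACLF livers. In the limma fit on the log2(TPM + 1) scale with a mean TPM of at least 1, the median gene differed by 0.44 between empty and normal livers and by 0.28 between UTOpiA and normal livers, against 0.04 and 0.05 on the scale used here.

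The livers carried the markers of hepatocytes. The summed TPM of 10 hepatocyte markers was 164610 to 179760 in normal, 32901 to 74968 in empty and 37923 to 67704 in UTOpiA livers. In empty livers 6 of the 10 were called lower and 1 higher than in normal livers, and their median log2 fold change was -1.13. Markers of other cells moved with disease. All 7 cholangiocyte markers, 8 of 9 macrophage markers, 6 of 8 stellate cell and fibroblast markers and the 5 neutrophil markers tested of 9 were called higher in empty than in normal livers. The 5 neutrophil markers had at most 15 counts in any normal liver and passed the count filter only through ACLF livers. Little but a call of higher was therefore possible for them. The untested neutrophil markers reached at most 30 counts in any liver. Of 9 endothelial markers, 3 were called higher and 1 lower. Of 5 erythroid markers, 4 were called higher and 1 lower, and their summed TPM was 95.5 to 265 in normal, 2178 to 3217 in empty and 728 to 1192 in UTOpiA livers. Of 8 platelet and megakaryocyte markers, Pf4 was called higher and Itga2b lower, and the other 6 reached at most 9 counts in any liver. In bulk tissue, fewer cells of a type and less RNA per cell cannot be told apart, and the part of cell composition in the results below was not tested.

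In normal livers the hepatocyte-made members were far more abundant than the tissue members. The 3 fibrinogen chain genes led with mean TPM of 3680 for Fgg, 2560 for Fgb and 2435 for Fga, followed by Plg at 1553 and F2 at 1533, whereas factor VII (F7) was the lowest of those tested at 54.2. The highest tissue member in normal livers was Tfpi at 8.04 TPM, and the lowest was F13a1 at 0.12. The hepatocyte-made members together took 1.60 to 1.85% of all TPM in normal livers, 2.88 to 7.18% in empty livers and 3.43 to 5.67% in UTOpiA livers. Without the fibrinogen chains and Kng1 the share was 0.76 to 0.83% in normal, 0.44 to 0.75% in empty and 0.60 to 0.80% in UTOpiA livers.

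In empty ACLF livers compared with normal livers, fibrinogen and kininogen transcripts were higher, several other hepatocyte-made factors were lower, and the tissue and endothelial regulators were mostly higher. Among the 21 hepatocyte-made members tested, 4 were called higher (Fga, Fgb, Fgg and Kng1), 4 were called lower (Serpind1, Plg, F12 and F13b) and 13 were not called. Over all genes 20.7% were called higher and 11.1% lower. Among the 13 tissue and endothelial members, 8 were called higher (Plat, Plaur, Thbs1, Procr, Tfpi2, Plau, F3 and Thbd) and none lower. Plaur, with at most 8 counts in the normal livers, passed the count filter only through ACLF livers and could hardly be called lower. With at least 10 counts in every library, where fewer members could be tested, 5 were called higher, beside 1644 of 11342 genes. The median log2 fold change was -0.72 for the hepatocyte-made and 2.28 for the tissue members, beside 0.04 for all genes. Without empty liver 2, 8 hepatocyte-made members were called lower, beside 1776 of 14398 genes. In each of the 3 limma fits on TPM 2 were called lower (Plg and Serpind1), beside 690 to 748 of all genes, with medians of -0.25 to -0.11 for the hepatocyte-made members. Relative to the median of the 10 hepatocyte markers, the hepatocyte-made median was 0.41. The normalised CPM of empty and normal livers did not overlap for 18 of 21 hepatocyte-made and 11 of 13 tissue members, against 61.1% of all genes.

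**Figure D1:**
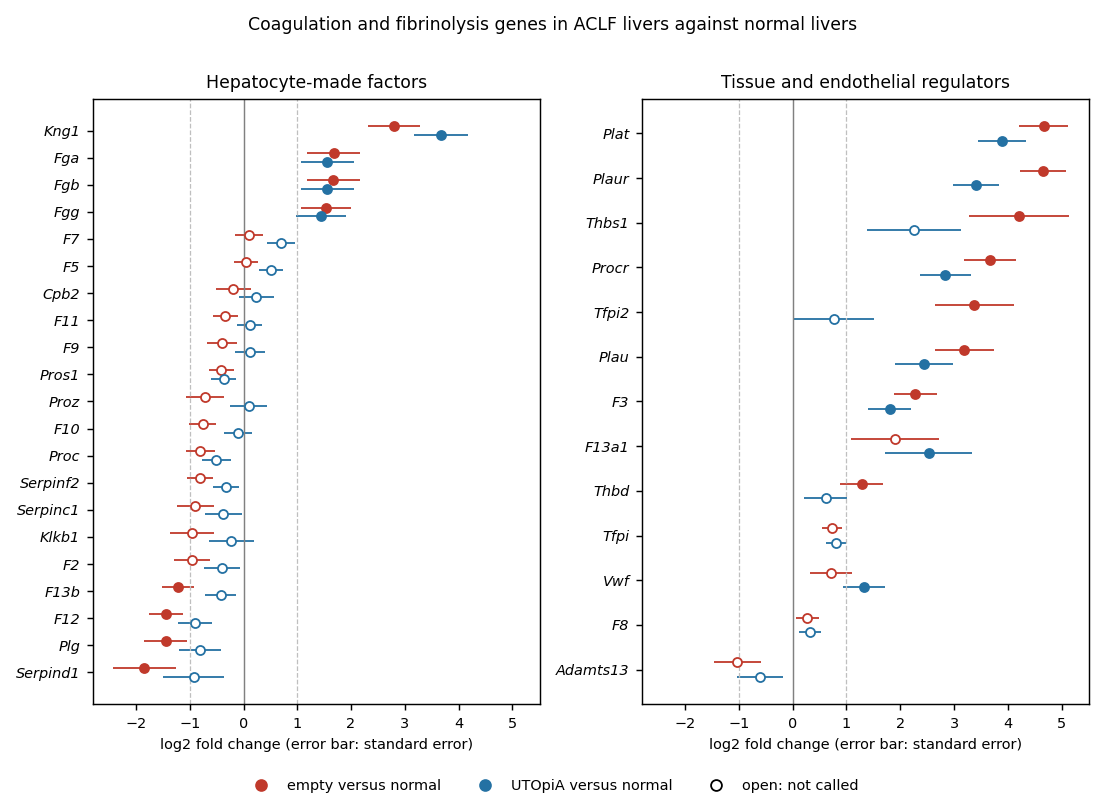
Log2 fold change of the 34 tested members in the empty (red) and UTOpiA (blue) groups against normal livers, with standard errors as bars; the left panel holds hepatocyte-made factors and the right panel tissue and endothelial regulators. Filled circles were called, dashed lines mark a fold change of 2, and tissue members run up to 4.67 (Plat) while Serpind1 is lowest at -1.84, both in the empty group.

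The fibrinogen chain genes lie within 51.0 kb of each other on chromosome 2 and encode the alpha (Fga), beta (Fgb) and gamma (Fgg) chains of the clot protein. Positions are those of the deposited table, for which the submitters' notes name the rat build rn6. Fga (chromosome 2, 182006242 to 182013763) was measured at 5383, 3997 and 4527 normalised CPM in the normal livers. It reached 22842, 6758 and 14774 in the empty livers and 7782, 14188 and 18993 in the UTOpiA livers. Every ACLF liver lay above every normal liver, with empty liver 2 and UTOpiA liver 1 the lowest of their groups. Fga differed by 1.67 ± 0.49 (SE) on the log2 scale between empty and normal livers (edgeR's quasi-likelihood test, Benjamini-Hochberg adjusted p = 0.0188) and by 1.56 ± 0.49 between UTOpiA and normal livers (adjusted p = 0.0305). Fgb rose by 1.67 in empty and 1.56 in UTOpiA livers, and Fgg by 1.53 and 1.45. The 3 chains kept near-constant proportions, Fga making up 26.8 to 30.1%, Fgb 28.0 to 32.2% and Fgg 39.3 to 43.8% of their summed TPM in the 9 livers. Some of these calls were lost when a liver was left out: in the empty group Fga was not called without normal liver 2, normal liver 3 or empty liver 1, Fgb also not without normal liver 1, and Fgg also not without normal liver 1 or empty liver 3, with adjusted p up to 0.0841. In the UTOpiA group none of the chains was called without any 1 of the normal livers, UTOpiA liver 2 or UTOpiA liver 3, with adjusted p up to 0.103 for Fga and Fgb and 0.108 for Fgg over all alternatives.

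The promoters of the members that rose and fell are shown because hepatocyte factors are known to share binding motifs for the liver regulator HNF1, and acute-phase genes an interleukin-6 response element. RefSeq windows of build GRCr8 were available for 27 of the 36 members. For each gene only the outermost 5′ start site listed was used, which need not be the one active in liver. The 250 bases before that start site were searched on both strands for GTTAAT, a core of the HNF1 motif. They were also searched for CTGGGAA, the core of the interleukin-6 response element, and no match of either overlapped a match of the other. Matches of both motifs, on either strand, are in capitals. The windows of the 4 hepatocyte-made members called higher in both ACLF groups were, 5′ to 3′ on the strand of the gene:
Fga, chr2:170671919-170672168, + strand: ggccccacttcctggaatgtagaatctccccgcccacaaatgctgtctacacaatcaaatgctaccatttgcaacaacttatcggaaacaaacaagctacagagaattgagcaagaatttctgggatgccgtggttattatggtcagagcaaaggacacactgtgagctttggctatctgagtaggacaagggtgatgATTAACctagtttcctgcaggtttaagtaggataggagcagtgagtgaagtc
Fgb, chr2:170700876-170701125, - strand: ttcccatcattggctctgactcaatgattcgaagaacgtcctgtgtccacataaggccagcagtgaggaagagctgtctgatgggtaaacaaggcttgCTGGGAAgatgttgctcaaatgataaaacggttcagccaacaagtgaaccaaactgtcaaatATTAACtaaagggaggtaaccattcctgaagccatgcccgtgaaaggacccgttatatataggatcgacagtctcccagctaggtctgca
Fgg, chr2:170652833-170653082, + strand: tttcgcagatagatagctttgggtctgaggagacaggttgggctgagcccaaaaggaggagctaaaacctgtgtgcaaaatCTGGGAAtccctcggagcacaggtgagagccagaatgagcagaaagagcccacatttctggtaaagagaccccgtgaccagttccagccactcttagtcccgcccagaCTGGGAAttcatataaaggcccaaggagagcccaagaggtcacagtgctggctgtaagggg
Kng1, chr11:91340149-91340398, - strand: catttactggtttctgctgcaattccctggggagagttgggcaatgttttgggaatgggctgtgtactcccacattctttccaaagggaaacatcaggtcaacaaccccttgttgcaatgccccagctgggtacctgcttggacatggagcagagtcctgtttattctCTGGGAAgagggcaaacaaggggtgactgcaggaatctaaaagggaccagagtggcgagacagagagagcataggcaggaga
The windows of 3 members called lower in the empty group were:
Plg, chr1:50915407-50915656, - strand: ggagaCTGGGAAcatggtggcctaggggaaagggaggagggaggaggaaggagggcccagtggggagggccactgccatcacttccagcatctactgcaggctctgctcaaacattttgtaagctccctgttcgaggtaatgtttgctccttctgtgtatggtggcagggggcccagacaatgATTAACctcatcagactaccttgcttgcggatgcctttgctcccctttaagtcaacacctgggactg
F13b, chr13:53681389-53681638, + strand: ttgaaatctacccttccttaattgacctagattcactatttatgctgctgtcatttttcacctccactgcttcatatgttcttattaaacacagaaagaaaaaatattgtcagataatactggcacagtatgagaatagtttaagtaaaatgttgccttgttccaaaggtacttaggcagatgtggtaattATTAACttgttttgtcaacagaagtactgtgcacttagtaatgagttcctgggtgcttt
F12, chr17:9212569-9212818, + strand: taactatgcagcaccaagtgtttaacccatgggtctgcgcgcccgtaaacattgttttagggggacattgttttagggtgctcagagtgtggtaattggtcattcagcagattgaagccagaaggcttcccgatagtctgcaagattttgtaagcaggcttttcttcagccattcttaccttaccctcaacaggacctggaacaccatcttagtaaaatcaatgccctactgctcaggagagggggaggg
Fgb, Fgg and Kng1 held CTGGGAA, with 2 matches in Fgg, and so did Plg, which fell in the empty group. The HNF1 core was found in Fga and Fgb and also in Plg and F13b. Neither motif was found in the F12 window. Over the members, the HNF1 core was found in 6 of 19 hepatocyte-made and 0 of 8 tissue windows, beside 6.49% of 27457 promoters of the same length. CTGGGAA was found in 6 of 19 hepatocyte-made and 2 of 8 tissue windows, beside 9.32% of all promoters. Further motif cores were also searched. An AP-1 core was found in 2 of 19 and 3 of 8 windows (6.33% of all promoters) and a STAT core in 4 and 1 (7.50%). An HNF4 core was found in 1 and 0 (0.34%) and a TATA core in 1 and 0 (13.1%). The HNF1 core and CTGGGAA were thus present among members that rose and among members that fell, and a match describes the letters of the window and not a binding site.

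The contact system split. Kng1 (chromosome 11, 81421676 to 81444621) encodes kininogen, the source of bradykinin and a cofactor of contact activation. It was measured at 1370, 1248 and 1351 normalised CPM in normal, 15094, 5582 and 7039 in empty, and 11098, 13392 and 25802 in UTOpiA livers. The ACLF livers all exceeded the normal ones, and UTOpiA liver 3 was the highest. The log2 difference from normal was 2.80 ± 0.48 in the empty group (edgeR's quasi-likelihood test, adjusted p = 0.00148) and 3.66 ± 0.50 in the UTOpiA group (adjusted p = 0.000732). Kng1 ranked 7 among the hepatocyte-made members by mean TPM in normal, 4 in empty and 2 in UTOpiA livers. The rat genome carries close kininogen paralogs, including acute-phase T-kininogens. The study's methods name uniquely mapped reads, and whether reads of the paralogs affect the Kng1 level was not tested. F12 (chromosome 17, 9736577 to 9744420), which encodes the contact protease factor XII, went the other way, with 623, 601 and 598 normalised CPM in normal, 197, 301 and 174 in empty, and 358, 195 and 425 in UTOpiA livers. All ACLF livers lay below all normal livers. F12 fell by 1.44 ± 0.32 in the empty group (adjusted p = 0.00481), but its change was -0.96, under 2-fold, in each of the 3 limma fits on TPM. In the UTOpiA group its difference of -0.90 ± 0.31 passed the adjusted p (0.0443) but not the fold. Klkb1, encoding prekallikrein (-0.96 in the empty group), and F11, encoding factor XI (-0.34), which lie within 49.7 kb of each other on chromosome 16, were not called in either group.

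None of the 7 vitamin K-dependent genes was called in any comparison, but without empty liver 2 F2 and Proc were called lower in the empty group. Their log2 fold changes in the empty group ran from -0.96 (F2, prothrombin) to 0.10 (F7), with a median of -0.72. On the log2(TPM + 0.1) scale this median was -0.25 with 3 of the 7 above 0, where the median of all genes was 0.50. F2, F10 (factor X) and Proc (protein C) passed the adjusted p, at 0.0400, 0.0331 and 0.0331, but their changes of -0.96, -0.76 and -0.80 were under 2-fold. F9 (factor IX, -0.39), Pros1 (protein S, -0.41) and Proz (protein Z, -0.72) did not pass. In the UTOpiA group the 7 ran from -0.50 (Proc) to 0.70 (F7), with a median of -0.10 that was 0.17 on the log2(TPM + 0.1) scale, where the median of all genes was 0.31. F5, the cofactor factor V, is not vitamin K-dependent and had log2 fold changes of 0.05 in the empty and 0.51 in the UTOpiA group, neither called. F7, F10 and Proz lie within 50.6 kb of each other on chromosome 16.

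Among the hepatocyte-made inhibitors, Serpind1 showed the largest decrease of any member. It encodes heparin cofactor II (chromosome 11, 87913806 to 87924816). The normal livers had 975, 991 and 1033 normalised CPM, the empty livers 136, 572 and 129, and the UTOpiA livers 681, 302 and 598. No ACLF liver overlapped the normal range, but empty liver 2 was within the UTOpiA range. The empty group differed from normal by -1.84 ± 0.58 (edgeR's quasi-likelihood test, adjusted p = 0.0270), or by -2.92 without empty liver 2, and the UTOpiA group by -0.92 ± 0.57 (adjusted p = 0.223). The empty call was lost without any 1 of the normal livers, empty liver 1 or empty liver 3, with adjusted p up to 0.0734. Serpinc1, which encodes antithrombin, had log2 fold changes of -0.89 (adjusted p = 0.0547) and -0.37.

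Plasminogen and the clot-stabilising factor XIII B subunit also fell in the empty group. Plg (chromosome 1, 48521772 to 48563776) was at 4027, 3286 and 3453 normalised CPM in normal, 1185, 2005 and 764 in empty, and 2331, 1257 and 2564 in UTOpiA livers. The ACLF livers lay below the normal ones, with empty liver 3 lowest. Plg fell by 1.44 ± 0.40 in the empty group (adjusted p = 0.0149), a call kept under each of the 18 alternatives run, and its difference in the UTOpiA group was -0.81 ± 0.40 (adjusted p = 0.133). F13b (chromosome 13, 56598957 to 56623124) was at 331, 321 and 339 in normal, 152, 178 and 97.5 in empty, and 266, 154 and 318 in UTOpiA livers. On this scale both ACLF groups lay below the normal livers, UTOpiA liver 3 only narrowly. In TPM, UTOpiA liver 1 (207) lay above all normal livers (up to 204). F13b fell by 1.21 ± 0.30 in the empty group (adjusted p = 0.00838), a call lost in the 3 limma fits on TPM, where the change was down to -0.73, and differed by -0.43 ± 0.30 in the UTOpiA group (adjusted p = 0.274). Of the other hepatocyte-made fibrinolysis genes, Serpinf2, encoding the plasmin inhibitor alpha2-antiplasmin, passed the adjusted p in the empty group (0.0211) with a change of -0.81 that was under 2-fold, and Cpb2, encoding the carboxypeptidase TAFI, had a log2 fold change of -0.19.

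**Figure D2:**
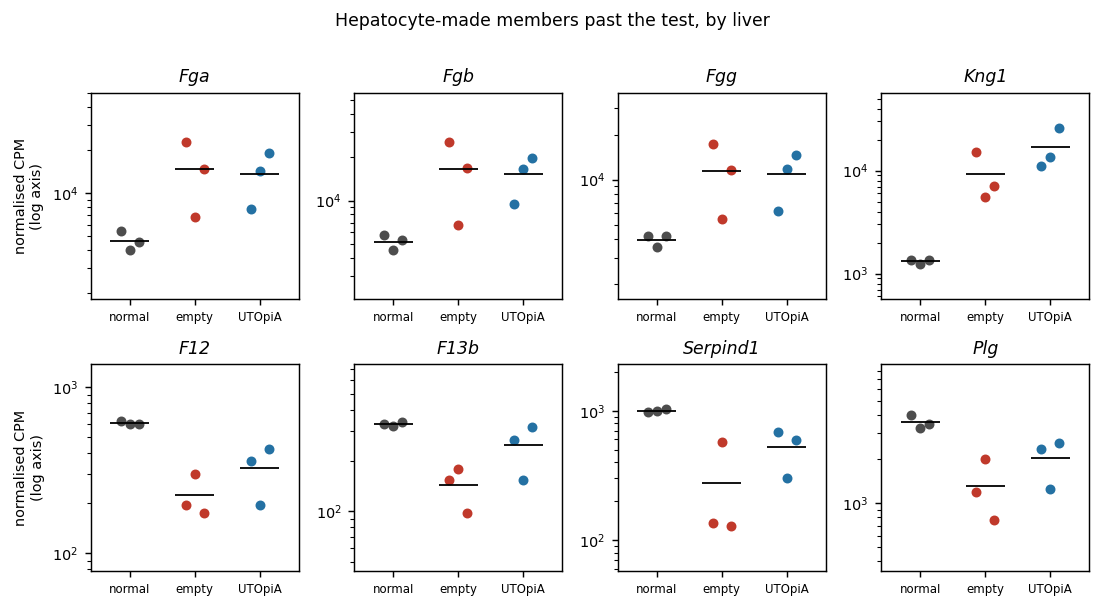
Normalised CPM (log axis) of the 8 hepatocyte-made members called in at least 1 comparison, with a point for each of the 3 livers in the normal, empty and UTOpiA groups and a line at the group mean. On this scale Fga, Fgb, Fgg and Kng1 lie above and F12, F13b, Serpind1 and Plg below all normal livers in every ACLF liver (in TPM, F13b of UTOpiA liver 1 lies above the normal livers).

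The tissue and endothelial members that start, restrain or localise clotting were low in normal livers and mostly higher in ACLF. Which cells of the liver expressed them was not tested. F3 (chromosome 2, 225310624 to 225322272) encodes tissue factor, the trigger of the extrinsic pathway. It was at 0.88, 1.29 and 1.39 normalised CPM in normal, 5.60, 7.02 and 4.80 in empty, and 2.93, 6.57 and 2.93 in UTOpiA livers. No ACLF liver reached down to the normal range. The difference from normal was 2.28 ± 0.40 in the empty group (edgeR's quasi-likelihood test, adjusted p = 0.00161) and 1.80 ± 0.40 in the UTOpiA group (adjusted p = 0.00684). Thbs1 (chromosome 3, 109862117 to 109873466) encodes thrombospondin 1, a platelet and matrix glycoprotein. It was at 7.44, 8.0 and 6.40 in normal, 46.8, 278 and 78.5 in empty, and 21.1, 74.0 and 8.35 in UTOpiA livers. Empty liver 2 stood above the rest and UTOpiA liver 3 was close to normal. Thbs1 rose by 4.21 ± 0.93 in the empty group (adjusted p = 0.00612), by 3.10 without empty liver 2, and its UTOpiA difference was 2.25 ± 0.87 (adjusted p = 0.0695). Thbs1 was called higher in the UTOpiA group by DESeq2, with only the 6 libraries compared, without empty liver 2 and without UTOpiA liver 3.

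The other tissue members of clotting gave smaller or less certain changes. F13a1, the factor XIII A subunit, which is made by macrophages and megakaryocytes, had only 2 to 5 counts in the normal livers. Its normalised CPM was 0.44, 0.32 and 0.16 in normal, 1.19, 1.56 and 0.77 in empty, and 0.33, 3.38 and 1.65 in UTOpiA livers, so that UTOpiA liver 1 lay within the normal range. It was called in the UTOpiA group (2.53 ± 0.81, adjusted p = 0.0330) and not in the empty group (1.9 ± 0.82, adjusted p = 0.0793), and the UTOpiA call was lost in 7 of 14 alternatives, with adjusted p up to 0.157 and a difference of 1.65 without UTOpiA liver 2. With only the 6 libraries compared, F13a1 was instead called in the empty and not in the UTOpiA group, and without UTOpiA liver 1 it was called in both. Vwf (chromosome 4, 158088505 to 158219523), encoding the endothelial and platelet adhesive protein von Willebrand factor, was at 11.9, 12.2 and 6.56 in normal, 14.4, 22.3 and 13.4 in empty, and 12.7, 29.8 and 34.4 in UTOpiA livers. All ACLF livers lay above the normal ones, UTOpiA liver 1 only narrowly. The UTOpiA difference of 1.32 ± 0.39 was called (adjusted p = 0.0264) and the empty difference of 0.71 ± 0.39 was not (adjusted p = 0.164), but the UTOpiA call was lost in 5 of 18 alternatives, and with limma on log2(TPM + 0.1) Vwf was called in both groups. F8, the endothelial factor VIII, had log2 fold changes of 0.27 and 0.32.

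Among the anticoagulant genes, Procr changed most. It encodes the endothelial protein C receptor (chromosome 3, 151285249 to 151289595). The normal livers had 1.57, 2.34 and 0.41 normalised CPM, from 5 to 29 counts, the empty livers 15.6, 20.4 and 19.5, and the UTOpiA livers 8.72, 14.7 and 7.60. The 3 groups did not overlap, with UTOpiA between normal and empty, although in TPM UTOpiA liver 2 (21.5) lay above empty liver 1 (20.5). Procr rose by 3.67 ± 0.48 in the empty group (adjusted p = 0.000457) and by 2.84 ± 0.48 in the UTOpiA group (adjusted p = 0.00202). Tfpi2 (chromosome 4, 28947965 to 28953067) encodes a matrix-bound inhibitor of plasmin, trypsin and tissue factor-factor VIIa. It was at 0.96, 0.49 and 1.15 in normal, 3.58, 19.7 and 3.84 in empty, and 1.5, 1.82 and 1.05 in UTOpiA livers. Empty liver 2 was far above the other empty livers, and the UTOpiA and normal ranges overlapped. Tfpi2 rose by 3.38 ± 0.74 in the empty group (adjusted p = 0.00505), by 2.09 without empty liver 2, and differed by 0.76 ± 0.75 in the UTOpiA group (adjusted p = 0.444).

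Thbd (chromosome 3, 142748674 to 142752325), encoding thrombomodulin, the endothelial cofactor that turns thrombin on protein C, was at 12.2, 10.3 and 9.35 normalised CPM in normal, 16.6, 45.6 and 15.4 in empty, and 15.3, 19.6 and 13.7 in UTOpiA livers. The ACLF livers all lay above the normal ones, and empty liver 2 was the highest. The empty difference of 1.28 ± 0.40 (adjusted p = 0.0257) came to 0.59 without empty liver 2 and was then not called, nor was it without any 1 of the normal livers (adjusted p up to 0.0817), and the UTOpiA difference was 0.61 ± 0.40 (adjusted p = 0.249). Tfpi, the main inhibitor of tissue factor, passed the adjusted p in both groups, at 0.0108 and 0.00882, but its changes of 0.72 and 0.80 were under 2-fold. It was called higher in both groups by all 3 limma fits on TPM. Adamts13, the protease that cleaves von Willebrand factor and is made by stellate cells, had log2 fold changes of -1.03 (adjusted p = 0.0767) and -0.61, and was called lower in the empty group only when empty liver 2 was left out.

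Plat and Plaur, of the plasminogen activation genes, had the largest log2 fold changes of all members in the empty group on the scale used here. In an alternative fit that left out no single liver, Plaur came to 3.73, where Thbs1 was at least 3.76. Plat (chromosome 16, 74098260 to 74122889) encodes tissue plasminogen activator. It was at 2.36, 3.40 and 2.95 normalised CPM in normal, 36.6, 83.8 and 102 in empty, and 34.7, 62.9 and 31.7 in UTOpiA livers. Every ACLF liver was above the normal range. Plat rose by 4.67 ± 0.46, or 25.4-fold, in the empty group (edgeR's quasi-likelihood test, adjusted p = 0.000142) and by 3.89 ± 0.45 in the UTOpiA group (adjusted p = 0.000425). Plau (chromosome 15, 3644769 to 3650819), encoding urokinase, was at 5.07, 5.09 and 5.17 in normal, 39.6, 45.4 and 55.0 in empty, and 17.2, 54.8 and 11.1 in UTOpiA livers. UTOpiA liver 2 lay among the empty livers and the other 2 UTOpiA livers below them. Plau rose by 3.19 ± 0.55 in the empty group (adjusted p = 0.00183) and by 2.44 ± 0.54 in the UTOpiA group (adjusted p = 0.00773), or by 1.47 without UTOpiA liver 2. Plaur (chromosome 1, 81328183 to 81344708), encoding the urokinase receptor carried by leukocytes, had 2 to 8 counts in the normal livers. It was at 0.70, 0.24 and 0.16 in normal, 8.14, 10.1 and 9.75 in empty, and 3.38, 4.04 and 4.44 in UTOpiA livers. The 3 groups were fully separate, with UTOpiA between. Plaur rose by 4.65 ± 0.42 in the empty group (adjusted p = 8.67e-05) and by 3.41 ± 0.42 in the UTOpiA group (adjusted p = 0.000475). Without normal liver 1, the highest of its group, these differences were 5.46 and 4.23.

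**Figure D3:**
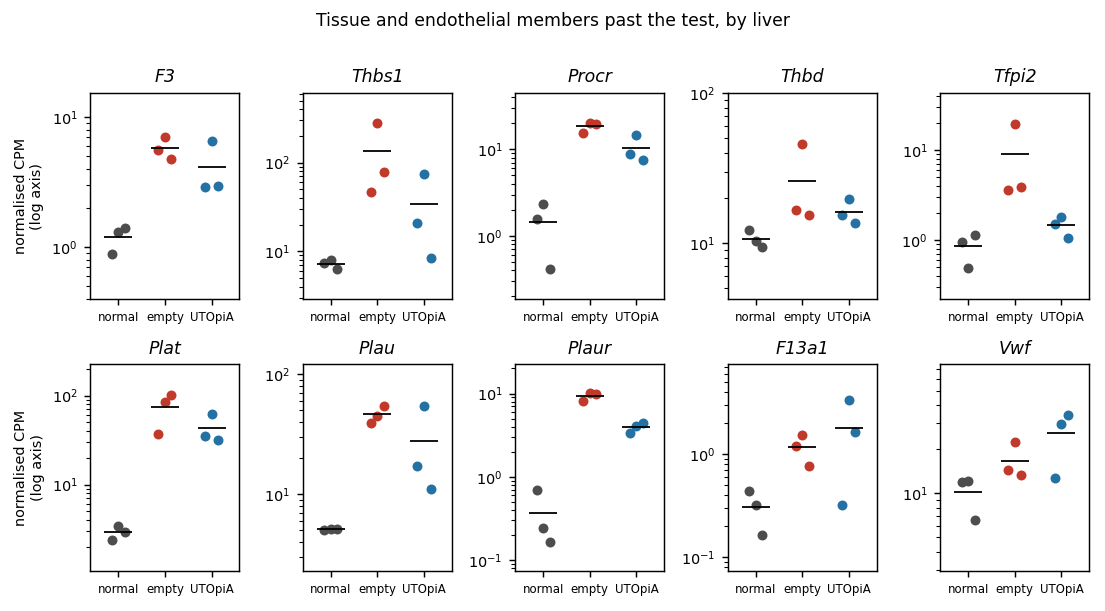
Normalised CPM (log axis) of the 10 tissue and endothelial members called in at least 1 comparison, with a point for each liver and a line at the group mean. Procr and Plaur form 3 separate levels on this scale (in TPM the Procr ranges of UTOpiA and empty livers overlap), while the Thbs1, Tfpi2 and Thbd means of the empty group are pulled up by empty liver 2.

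By mean TPM, the order of the tissue members differed between normal and ACLF livers. Tfpi (8.04), Thbd (4.17) and Plau (3.91) led in normal livers, whereas Thbs1 (75.5), Plat (61.1) and Plau (51.6) led in empty livers and Plat (32.0), Plau (29.4) and Thbs1 (19.1) in UTOpiA livers. In both ACLF groups the TPM ranges of these 3 leading members over the livers overlapped.

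The UTOpiA group compared with normal livers had 4 of 21 hepatocyte-made members called higher, again the fibrinogen chains and Kng1, and 0 called lower, where 18.2% of all genes were called higher and 6.81% lower. Of the 13 tissue members, 7 were called higher (Plat, Plaur, Procr, F13a1, Plau, F3 and Vwf) and 0 lower. Plaur and F13a1, with at most 8 and 5 counts in the normal livers, passed the count filter only through ACLF livers and could hardly be called lower. With at least 10 counts in every library, where fewer members could be tested, 4 were called higher, beside 1384 of 11342 genes. The median log2 fold change was -0.10 for the hepatocyte-made and 1.80 for the tissue members, beside 0.05 for all genes. The hepatocyte-made median was 0.17 on the log2(TPM + 0.1) scale, where that of all genes was 0.31. The groups did not overlap for 12 of 21 hepatocyte-made and 9 of 13 tissue members, against 56.9% of all genes. The 10 hepatocyte markers had a median of -0.82 in the same comparison, with 4 called lower and 1 higher. Both ACLF groups were set against the same 3 normal livers, so their values stand side by side here and are not independent.

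The direct comparison of UTOpiA with empty livers called none of the 34 members, and 0% of all genes. The circuits differed by the organoid and adsorption columns, but selection by survival may also have differed between the groups, and these cannot be told apart. At an unadjusted p under 0.05, 7 of the 34 members and 10.3% of all genes (1456) differed. Of the hepatocyte-made members, 18 of 21 had a log2 fold change above 0, beside 7071 of 14089 genes. The exceptions were the fibrinogen chains, at -0.12 for Fga, -0.11 for Fgb and -0.08 for Fgg. The hepatocyte-made median was 0.52 (0.30 to 0.76 when each liver was left out in turn), beside 0.00 for all genes. The 10 hepatocyte markers had a median of 0.45. Of the tissue members, 8 of 13 were below 0, with a median of -0.67 (-0.98 to -0.32 when each liver was left out in turn). The 7 cholangiocyte markers (median -0.61) and the 5 neutrophil markers tested (median -0.64) were also below 0. Of the endothelial markers 5 of 9 were above 0 (median 0.02), of the stellate cell and fibroblast markers 4 of 8 (median -0.03), of the macrophage markers 3 of 9 (median -0.35) and of the erythroid markers 2 of 5 (median -0.77). The members' normalised CPM did not overlap between the groups for 5 of 34, against 12.1% of all genes: F5 and F10 were higher and Procr, Tfpi2 and Plaur lower in UTOpiA livers. In TPM, F5 and Procr overlapped and the other 3 did not.

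Of the members with the smallest unadjusted p, Tfpi2 differed by -2.62 ± 0.69 (adjusted p = 0.327) and Plaur by -1.24 ± 0.33 (adjusted p = 0.332). Both were called lower by DESeq2, which called 49 genes higher and 74 lower in this comparison. Thbs1 differed by -1.96 ± 0.83 (adjusted p = 0.469), and leaving out empty liver 2, the highest for Thbs1 and Tfpi2, also called no member. Proz (0.81), F13b (0.79), F10 (0.66) and F7 (0.60) were the hepatocyte-made members with an unadjusted p under 0.05, and their adjusted p ran from 0.433 to 0.473. The largest hepatocyte-made difference was that of Serpind1, at 0.92 ± 0.57 (adjusted p = 0.611). Without UTOpiA liver 2, edgeR called Plau lower and no other member.

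**Figure D4:**
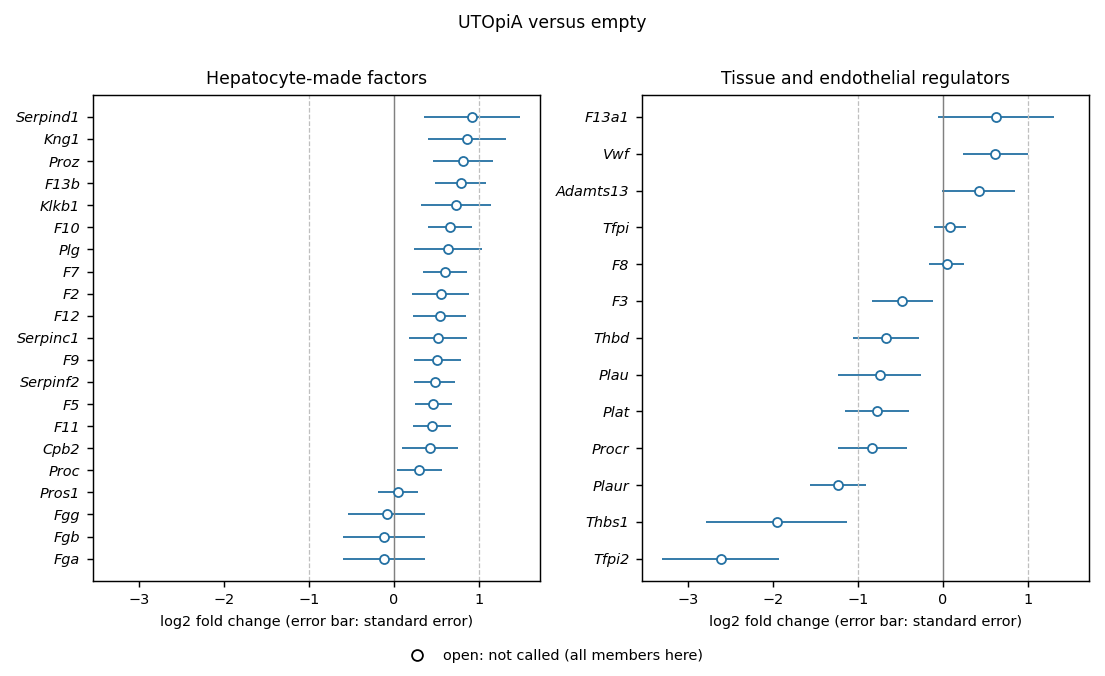
Log2 fold change of the 34 tested members in the UTOpiA group against the empty group, with standard errors as bars; dashed lines mark a fold change of 2. All circles are open because no member was called, most hepatocyte-made members lie to the right of 0, and Tfpi2 lies farthest to the left at -2.62.

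The livers of a group differed in which members were high or low. Empty liver 3 was the lowest of its group for 17 of 21 hepatocyte-made members, whereas empty liver 2 had the lowest fibrinogen chains and Kng1 of its group but the highest value of 10 of 21 hepatocyte-made and 10 of 13 tissue members. Empty liver 1 was the highest for the other 11 hepatocyte-made members. Empty liver 2 also had the highest summed hepatocyte markers of the empty group, 74968 TPM against 32901 and 34806. In the UTOpiA group, liver 3 was the highest for 19 of 21 hepatocyte-made members, and liver 2 was the lowest for 16 of 21 and the highest for 10 of 13 tissue members. These counts of highest and lowest livers are in normalised CPM. In TPM, UTOpiA liver 3 was the highest only for F2, F7, F9, F10, F11, Proz, Cpb2 and Kng1. The other tested hepatocyte-made members were highest in UTOpiA liver 1 or, for F5 and the fibrinogen chains, in UTOpiA liver 2. UTOpiA liver 2 had the lowest hepatocyte markers (37923 TPM) and the highest cholangiocyte markers (425 TPM, against 195 and 134) of its group. UTOpiA liver 3 had the lowest TMM factor of the ACLF livers, 0.86, and its values scale with it. The part of these marker and scale differences in the members' levels was not tested.

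Of 28 further genes of the pathway, 27 were in the table and 25 were tested. In empty against normal livers 10 were called higher and 4 lower, with a median log2 fold change of -0.05, and in UTOpiA against normal livers 9 were called higher and 1 lower. The shares of all genes called higher and lower were 20.7% and 11.1% for empty livers, and for UTOpiA livers 18.2% and 6.81%. A2m, the broad protease inhibitor alpha2-macroglobulin, rose by 5.64 ± 1.35 on the log2 scale in the empty and 5.66 ± 1.35 in the UTOpiA group. Its livers spread widely, from 14 to 518 normalised CPM in the empty and 65.6 to 689 in the UTOpiA group, against 4.99 to 7.87 in normal livers. F2rl1, the protease-activated receptor PAR2, rose by 5.01 ± 1.02 and 4.08 ± 1.03 from at most 5 counts in any normal liver. The largest decreases among those called in the empty group were in Lman1 (-1.32), a cargo receptor for the secretion of factors V and VIII, Vkorc1 (-1.25), the reductase that recycles vitamin K, and Asgr2 (-1.14), a chain of the receptor that clears desialylated glycoproteins and platelets. In the UTOpiA group Lman1 was called (-1.08), while Vkorc1 (-0.67) and Asgr2 (-0.59) were not.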

How the data were processed

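Liver RNA of 3 normal, 3 empty and 3 UTOpiA rats was sequenced as poly(A)-selected libraries. The authors deposited a table of raw read counts per gene and a table of TPM per gene. The submitters' processing notes name Trimmomatic, HISAT2, featureCounts and build rn6, and their labels a NEBNext directional kit, whereas the study's methods name Cutadapt 1.9.1, HISAT2 2.0.1, featureCounts 2.6.0, the mouse build GRCm38 and an MGI kit. This conflict could not be settled from the sources used here, and gene identifiers were used as deposited. The strand setting of the counting was not given in the sources used here, so reads of overlapping antisense genes may be included.

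Groups were taken from the sample labels. Counts were fitted with edgeR 4.0.16 in R 4.3.3 (robust quasi-likelihood, TMM factors, filterByExpr, 1 mean per group over all 9 libraries, 6 residual degrees of freedom), and p-values were adjusted over 14089 genes. Alternatives used DESeq2 1.42.0 and limma 3.58.1 on log2(TPM + 1) or log2(TPM + 0.1), with or without a mean TPM of at least 1. The scripts were tested on simulated data. No replicate pair agreed within sampling noise (chi-square per degree of freedom of at least 17.6). The precision of each value is limited by 3 livers per group and, for members under 10 counts in a liver, by counting error.

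The members, the gene lists and the role groups were chosen with earlier results of these data known, so no p-value is given for a list. Values per liver are given for called members, at most 4 in each role group, and for untested members. Members that were not called are given by their fold changes. Of the further pathway genes, those among the 3 with the largest called change in each direction are named. An item that met this rule is not reported here. Same-numbered livers were not paired (correlation of deviations -0.18 to 0.06). Promoter windows were matched by symbol in RefSeq GRCr8. Protein sequences were not used here.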

Additional observations from a re-analysis of the deposited data

How the results depend on the processing

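No called member reversed its direction under any alternative in which it was tested. Of the calls, 9 of 16 in empty and 6 of 11 in UTOpiA against normal livers held under every alternative in which the gene was tested. Among these, Procr and Plaur, and in the empty group Tfpi2, could not be tested with at least 10 counts in every library. In empty against normal livers, the hepatocyte-made members called lower numbered 2 under each of the 3 limma fits on TPM and 8 with no fold threshold. Over all genes the limma fits called 690 to 748 lower, against 1560 as reported, and the number with no fold threshold was not computed. The tissue members called higher numbered 5 with at least 10 counts in every library, where only 9 could be tested, and 10 with limma on log2(TPM + 0.1). All genes called higher there were 1644 of 11342 and 3666 of 13316. The hepatocyte-made median was -0.25 with limma on log2(TPM + 1) and on log2(TPM + 0.1), -0.11 on log2(TPM + 1) with no filter and 0.41 relative to the median of the hepatocyte markers. The tissue median was 1.39 with at least 10 counts, 3.00 on log2(TPM + 0.1) and 3.41 relative to the hepatocyte markers. In UTOpiA against normal livers, 1 hepatocyte-made member (F12) was called lower with no fold threshold. With at least 10 counts, 4 tissue members were called higher, beside 1384 of 11342 genes. The hepatocyte-made median was 0.72 relative to the hepatocyte markers, and the tissue median was 1.24 and 1.15 on log2(TPM + 1) with and without a filter and 2.62 relative to the hepatocyte markers. With the replicate block, only 1 hepatocyte-made member (Kng1) was called higher in UTOpiA livers and the fibrinogen calls were lost, while 2344 of 14089 genes were called higher. Same-numbered livers share only a number, so this does not describe a weaker effect. DESeq2 called 2 tissue members (Plaur and Tfpi2) lower in UTOpiA than in empty livers. The causes of these shifts were not tested.

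Leaving out each liver in turn, in empty against normal livers, gave 3 to 8 hepatocyte-made members called lower (8 without empty liver 2, adding F2, Klkb1, Proc and Serpinc1), 1 to 4 called higher, 7 to 9 tissue members called higher and 0 to 1 lower, with medians of -0.75 to -0.50 and 2.09 to 2.40. Of the 14295 to 14473 genes tested in these fits, 1336 to 1776 were called lower and 2621 to 2981 higher. In UTOpiA against normal livers it gave 0 to 1 lower (F12 without UTOpiA liver 3) and 1 to 4 higher hepatocyte-made members, 5 to 8 higher tissue members, and medians of -0.35 to 0.06 and 1.20 to 2.00. Over all genes 725 to 1104 were called lower and 2091 to 2707 higher. In UTOpiA against empty livers it gave 0 to 1 tissue members called lower (Plau without UTOpiA liver 2) and medians of 0.30 to 0.76 and -0.98 to -0.32. Without empty liver 2, 26 of all genes were called higher and 22 lower in this last comparison, and without UTOpiA liver 2, 32 higher and 17 lower.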

Other observations

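Of 7 further genes listed for plasminogen binding at the cell surface and related functions, 3 were called higher in empty than in normal livers and 4 (Plgrkt, Eno1, Vtn and Habp2) had log2 fold changes of -0.71 to -0.07 and were not called, with a median of -0.07 over the 7. The 3 called and the genes named below were chosen after their values were seen. Anxa2 and S100a10, whose products form the annexin A2 complex that binds plasminogen and tissue plasminogen activator, rose from means of 19.7 and 9.92 normalised CPM in normal livers to 178 and 94.3 in empty livers and 172 and 66.4 in UTOpiA livers, and both were called in both groups by edgeR's quasi-likelihood test. Fgl2, which encodes a membrane protein with prothrombinase activity, rose from 9.10 to 65.0 in empty and 21 in UTOpiA livers. Its difference between UTOpiA and empty livers, -1.62 ± 0.34 on the log2 scale, had an unadjusted p of 0.000958 and an adjusted p of 0.221 by edgeR's quasi-likelihood test, with no overlap between the groups. F2r, the thrombin receptor PAR1, rose by 2.47 in empty and 1.60 in UTOpiA livers. Its lowest empty and highest UTOpiA liver were level at 20.8 normalised CPM, and the difference of -0.87 between the ACLF groups had an adjusted p of 0.431. Mcfd2, the partner of Lman1 in the secretion of factors V and VIII, fell by 1.03 in the empty group (adjusted p = 0.00492) and differed by -0.75 in the UTOpiA group, under 2-fold.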
